A study of Mus musculus with 9 samples.

Results

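Agap1 and Samd4 are mouse genes that each give rise to many circular RNAs (circRNAs), and within each gene some circles were more abundant in proliferating myoblasts while others were more abundant after differentiation. All rows of the deposited circRNA table that are assigned to either gene were taken, which gave 101 of 37751 circRNAs, with 52 from Agap1 and 49 from Samd4. The pair was picked because circles of each gene differ in opposite directions between days, so fold changes, calls and shares of reads are given here as a description, with no p-value, and support nothing beyond themselves. The measure is the number of sequencing reads that cross a back-splice junction, the join of a downstream exon end to an upstream exon start that is found in a circle and not in the linear transcript. Both genes together held 27781 of 2679099 such reads.

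The cells were C2C12, an established line of mouse skeletal myoblasts, sampled in 3 libraries at each of 3 time points. Day 0 cells were proliferating in medium with 10% fetal bovine serum and were collected at 70 to 80% confluence. Day 3 and day 6 cells were collected 3 and 6 days after confluent cultures were moved to 2% horse serum, in which myoblasts become myocytes and fuse into myotubes. All libraries come from 1 untreated line and total RNA, and no source used here says whether the 3 libraries of a day came from separate cultures, so the spread between them may be partly technical. Libraries held 208787 to 443955 back-splice reads, and the smallest value above 0 anywhere in the table was 2 reads, so a circle with a single read is listed at 0. Summed over 9 muscle marker hosts, circRNA levels were 316 to 521 CPM (reads scaled to library size) at day 0. They were 10193 to 11801 CPM at day 3 and 12324 to 16192 CPM at day 6. Among the 10 genes of the muscle list, 6 were at 0 at day 0, 3 at day 3 and 2 at day 6. Of 10 adipocyte or osteoblast markers, 2 were circRNA hosts and 8 were at 0 on every day, and the summed level of the list was 342 to 671, 490 to 868 and 380 to 635 CPM at days 0, 3 and 6.

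AGAP1 belongs to the GTPase-activating proteins of the ARF family of small GTPases, which switch vesicle budding on membranes, and it binds the AP-3 adaptor complex that sorts cargo from endosomes towards lysosomes. SAMD4, the mammalian counterpart of Drosophila Smaug, carries a SAM domain that binds RNA hairpins. In flies Smaug represses translation of maternal mRNAs and recruits the CCR4-NOT deadenylase to them. A mutation of mouse Samd4 is known for causing leanness with muscle disease. Circles themselves form when the spliceosome joins the end of an exon to the start of the same or an earlier exon, and they lack the free ends that exonucleases attack.

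Agap1 spans chr1:89454806-89897617 and Samd4 spans chr14:46882854-47105815 on GRCm38, both on the plus strand, and all 101 circles are listed on that strand. Exons are numbered along the GENCODE M21 transcripts Agap1-201, with 18 exons, and Samd4-201, with 13 exons. The genes differed in the kind of circle listed. Of the 52 Agap1 circles, 36 are labelled exonic and 16 intronic, and the intronic ones held 1.65% of Agap1 reads. Of the 49 Samd4 circles, 11 are exonic and 38 intronic, and the intronic ones held 18.9% of Samd4 reads. Of the exonic circles, 35 of 36 in Agap1 and 11 of 11 in Samd4 begin and end at annotated exon edges, and the remaining Agap1 circle has 1 end off an edge, whereas 22 Samd4 circles touch no exon edge at either end. Circles were assembled from few sites, with 20 starts and 14 ends in Agap1 and 19 starts and 20 ends in Samd4. Of the 50 circles listed within the Samd4 span, 1 is assigned to another gene and was not taken. In circBase, a public catalogue of circRNAs, 3 Agap1 circles and 1 Samd4 circle were already known.

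Reads were concentrated in few circles. In Agap1, 7 circles were seen in all 9 libraries and held 87.8% of the gene's reads, while 24 circles were seen in 1 library only and held 1.71%. In Samd4, 4 circles were seen in all libraries and held 84.8%, and 26 were seen in 1 library and held 1.95%. A filter on low counts left 38 of the 101 circles for testing, 23 from Agap1 and 15 from Samd4, with 97.7% and 96.7% of their gene's reads, among 8153 tested circRNAs in all. The 63 circles below the filter are accounted for only in the sums.

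Back-splice junctions are shown for the 6 exonic circles that carry most of the reads. The junction is the sequence that was counted, and it separates a circle from the linear mRNA made of the same exons. Each line gives 40 bases on the plus strand, 5′ to 3′, from the RNA of transcripts Agap1-201 and Samd4-201 written as DNA: lower case is the last 20 bases of the final exon and capitals are the first 20 bases of the first exon, to which it is joined.
Agap1 exons 2 to 6, chr1:89604598-89634294: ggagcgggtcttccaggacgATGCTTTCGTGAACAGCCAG
Agap1 exons 4 to 6, chr1:89627761-89634294: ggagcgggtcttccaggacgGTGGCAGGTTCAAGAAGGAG
Agap1 exons 7 to 9, chr1:89663661-89671271: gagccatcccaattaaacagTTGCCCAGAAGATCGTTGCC
Agap1 exons 10 to 12, chr1:89725961-89766464: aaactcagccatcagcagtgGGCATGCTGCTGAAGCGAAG
Agap1 exons 14 to 16, chr1:89834434-89843243: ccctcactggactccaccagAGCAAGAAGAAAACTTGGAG
Samd4 exon 3, chr14:47016277-47016795: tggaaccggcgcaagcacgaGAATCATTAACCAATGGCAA
The first pair share the lower-case side, since both end at exon 6, and differ in the capitals, which come from exon 2 in one and from exon 4 in the other. The exons 7 to 9 circle shares no exon with either of them.

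The exons 2 to 6 circle and the exons 7 to 9 circle of Agap1 are neighbours. They lie on either side of the same intron of 29366 bp, the intron between exons 6 and 7, which is downstream of the first circle and upstream of the second. The exons 2 to 6 circle joins 5 exons into 510 bases and follows intron 1 of 149005 bp, longer than the upstream intron of 99.3% of 7369 tested exonic circles. The exons 7 to 9 circle joins 377 bases and precedes an intron of 54689 bp, longer than the downstream intron of 96.2% of 7371 tested exonic circles. Exon 3 of Samd4 forms a circle on its own, of 519 bases, between introns of 131260 bp and 36054 bp, longer than 98.9% and 91.9% of upstream and downstream introns. Over all 7373 tested exonic circles the median upstream intron was 8701 bp, the median downstream intron 6300 bp and the median spliced length 537 bases. The exons 7 to 9 circle lies within the span of 4933400F21Rik, a gene annotated on the opposite strand, and 2 Agap1 rows with 26 reads name that gene as well. Whether the authors' counting used strand is not given in the sources used here.

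**Figure D1:**
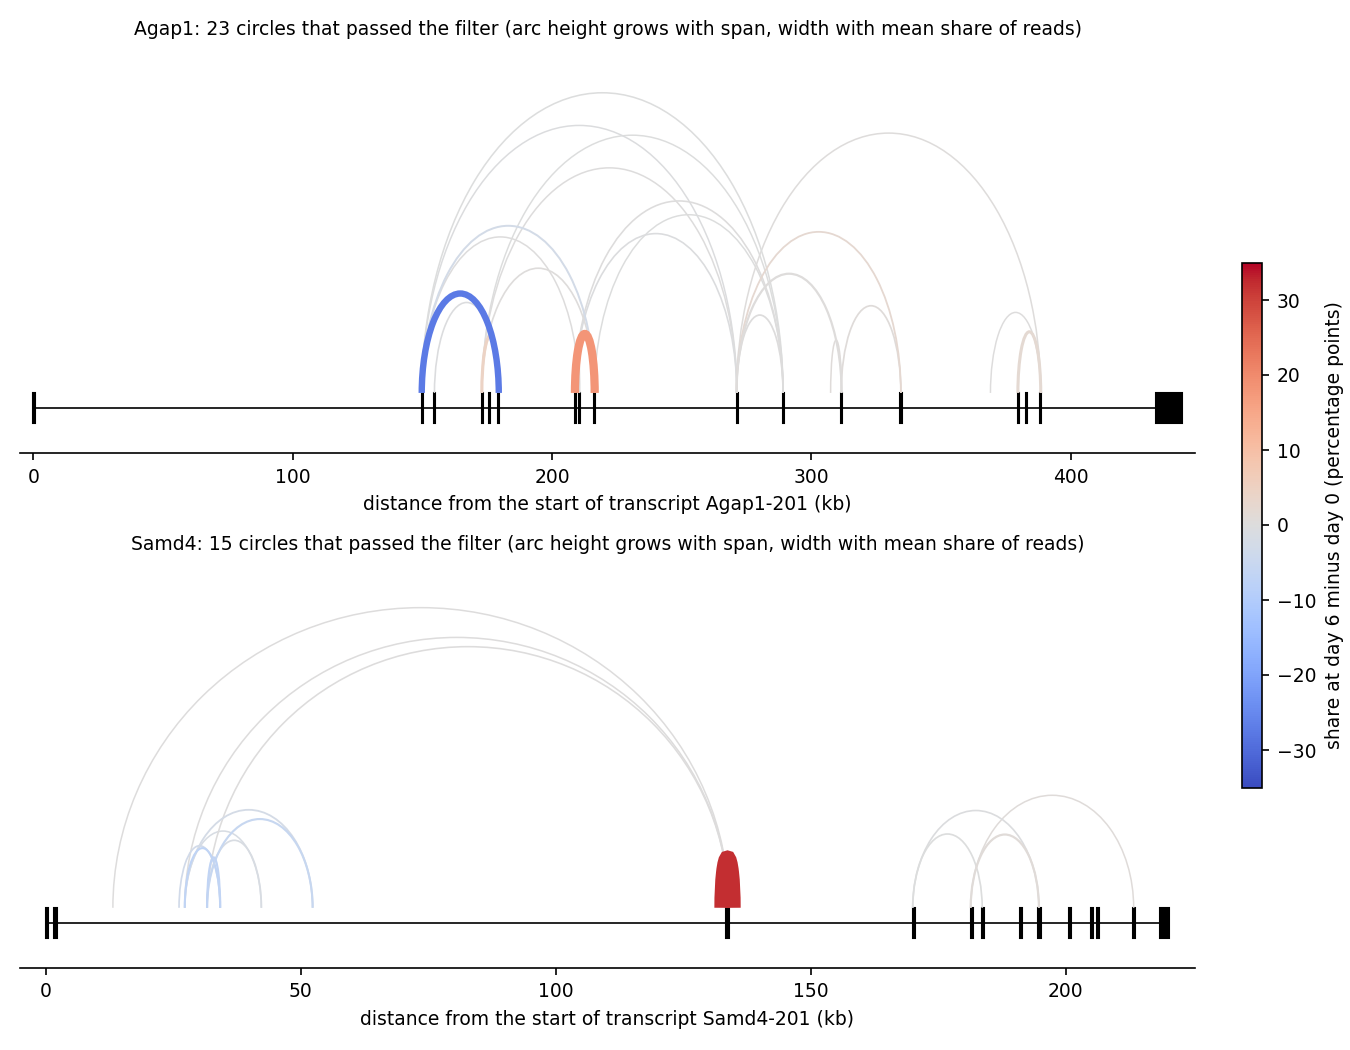
Map of the tested circles along Agap1 (top) and Samd4 (bottom), with distance from the start of transcript 201 in kb and exons as black boxes. Each arc joins the 2 ends of a circle, its width grows with the circle's mean share of the gene's reads over the 3 days, and its colour is the share at day 6 minus that at day 0 in percentage points; the arc of Samd4 exon 3 is drawn wider than its span. Blue arcs for exons 2 to 6 of Agap1 and within the second intron of Samd4 stand beside red arcs for Agap1 exons 7 to 9 and Samd4 exon 3.

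The exons 2 to 6 circle was the most abundant Agap1 circle in proliferating cells. It had 876, 676 and 587 reads in the 3 day 0 libraries, 330, 297 and 495 at day 3, and 130, 212 and 315 at day 6. Scaled to library size these are 2560 ± 204 CPM for day 0, 1184 ± 232 for day 3 and 730 ± 139 for day 6 (mean ± SD of 3 libraries). Every library of a later day lay below every library of the earlier day, so the 3 days did not overlap. Its log2 fold change was -1.11 ± 0.23 (SE) for day 3 against day 0, -1.81 ± 0.23 for day 6 against day 0 and -0.70 ± 0.23 for day 6 against day 3. It took 42.9 ± 2.67% of Agap1 reads at day 0, 20.0 ± 4.90% at day 3 and 15.5 ± 2.78% at day 6.

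The exons 7 to 9 circle was the most abundant Agap1 circle at days 3 and 6. Its reads numbered 452, 343 and 398 at day 0, 746, 753 and 783 at day 3, and 413, 430 and 1020 at day 6. Means were 1439 ± 133 CPM at day 0, 2443 ± 177 at day 3 and 2005 ± 359 at day 6. All day 3 and day 6 libraries lay above all day 0 libraries, and days 3 and 6 overlapped. The log2 fold change was 0.76 ± 0.20 for day 3 against day 0, 0.48 ± 0.20 for day 6 against day 0 and -0.28 ± 0.20 for day 6 against day 3. Its share of Agap1 reads was 24.1 ± 2.46%, 41.0 ± 0.465% and 42.4 ± 5.45% at days 0, 3 and 6.

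Within a library the ratio of the 2 circles does not depend on scaling. Reads for exons 7 to 9 over reads for exons 2 to 6 were 0.516, 0.507 and 0.678 at day 0, 2.26, 2.54 and 1.58 at day 3, and 3.18, 2.03 and 3.24 at day 6. The exons 2 to 6 circle was thus the larger of the pair in 3 of 3 day 0 libraries and the smaller in all 6 later ones. The mean log2 ratio was -0.83 ± 0.23 at day 0, 1.06 ± 0.35 on day 3 and 1.46 ± 0.38 on day 6 (SD, n = 3).

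**Figure D2:**
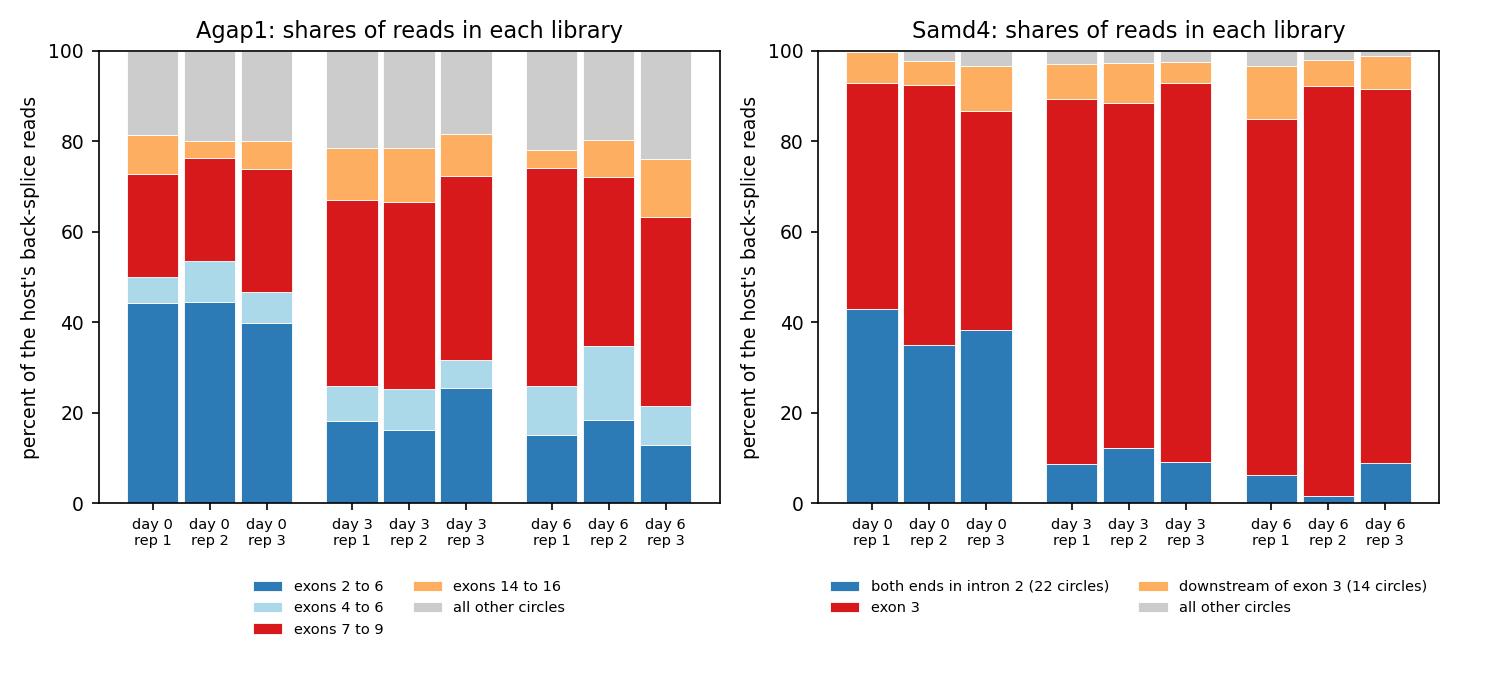
Share of each library's Agap1 reads (left) and Samd4 reads (right), in percent, taken by single circles or groups of circles; bars are libraries, ordered by day and replicate, and add up to 100. Agap1 exons 2 to 6 is the widest Agap1 band in the day 0 libraries and Agap1 exons 7 to 9 in the day 3 and day 6 libraries, and circles with both ends in intron 2 of Samd4 take 38.7% on average at day 0 and 5.63% at day 6.

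The exons 4 to 6 circle ends at the same junction site as the exons 2 to 6 circle but starts 2 exons later. It had 110, 140 and 104 reads at day 0, 142, 161 and 119 at day 3, and 92, 189 and 210 at day 6. Its level was 432 ± 99.4, 456 ± 108 and 559 ± 185 CPM at days 0, 3 and 6, and all 3 days overlapped. Of all Agap1 reads that end at exon 6, it took 14.1 ± 3.11% at day 0, 27.3 ± 7.27% at day 3 and 41.4 ± 4.98% at day 6, and the exons 2 to 6 circle took 83.3 ± 2.04%, 70.0 ± 9.57% and 55.0 ± 2.15%. Levels of the smaller circle overlapped between days, while those of the circle that shares its end did not.

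The exons 14 to 16 circle, of 469 bases, varied between libraries of the same day, most at day 6. It had 168, 59 and 93 reads at day 0, 208, 217 and 182 at day 3, and 35, 94 and 316 at day 6. Its means were 374 ± 149, 654 ± 114 and 429 ± 298 CPM, and its share was 6.23 ± 2.31%, 10.9 ± 1.34% and 8.39 ± 4.43%. The day 3 libraries all lay above the day 0 libraries, and the day 6 libraries reached from below the lowest day 0 value to near the highest day 3 value.

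The other 19 tested Agap1 circles each took at most 5.77% of the gene's reads on any day, and 2 of them are described here although they were chosen after their values were seen. The exons 10 to 12 circle had 56, 44 and 46 reads at day 0, 140, 85 and 95 at day 3, and 47, 6 and 105 at day 6. Its day 3 libraries all lay above those of day 0, and 1 day 6 library was far below the rest. The exons 2 to 9 circle, which joins the start of the first leading circle to the end of the second, had 55, 79 and 74 reads at day 0, 36, 36 and 45 at day 3, and 6, 22 and 69 at day 6. Its mean level was 257 CPM at day 0, 125 CPM at day 3 and 93.2 CPM at day 6, and all later libraries lay below those of day 0.

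Grouped by the exon at which a circle starts, shares of Agap1 reads differed between days in opposite ways at exons 2 and 7. Circles that start at exon 2 took 49.0 ± 3.39% of Agap1 reads at day 0, 23.2 ± 5.29% at day 3 and 18.7 ± 2.97% at day 6. Circles that start at exon 7 took 26.7 ± 2.44%, 43.0 ± 1.02% and 45.0 ± 6.26%. The 4 circles that start at exon 10 took 5.17 ± 0.339% at day 0, 9.93 ± 1.51% at day 3 and 8.38 ± 2.30% at day 6, and days 0 and 3 did not overlap. Circles that start at exon 4 averaged 524 CPM at day 0, 550 CPM at day 3 and 700.2 CPM at day 6, and the days overlapped. Grouped by end, reads that finish at exon 6 made up 51.5 ± 3.60%, 28.3 ± 2.97% and 28.3 ± 6.18%, and those that finish at exon 9 made up 29.4 ± 3.43%, 44.4 ± 1.01% and 46.1 ± 4.36%. Within the reads that finish at exon 9, the exons 7 to 9 circle took 82.2 ± 1.97% of those reads at day 0, 92.4 ± 2.65% at day 3 and 91.8 ± 3.93% at day 6.

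**Figure D3:**
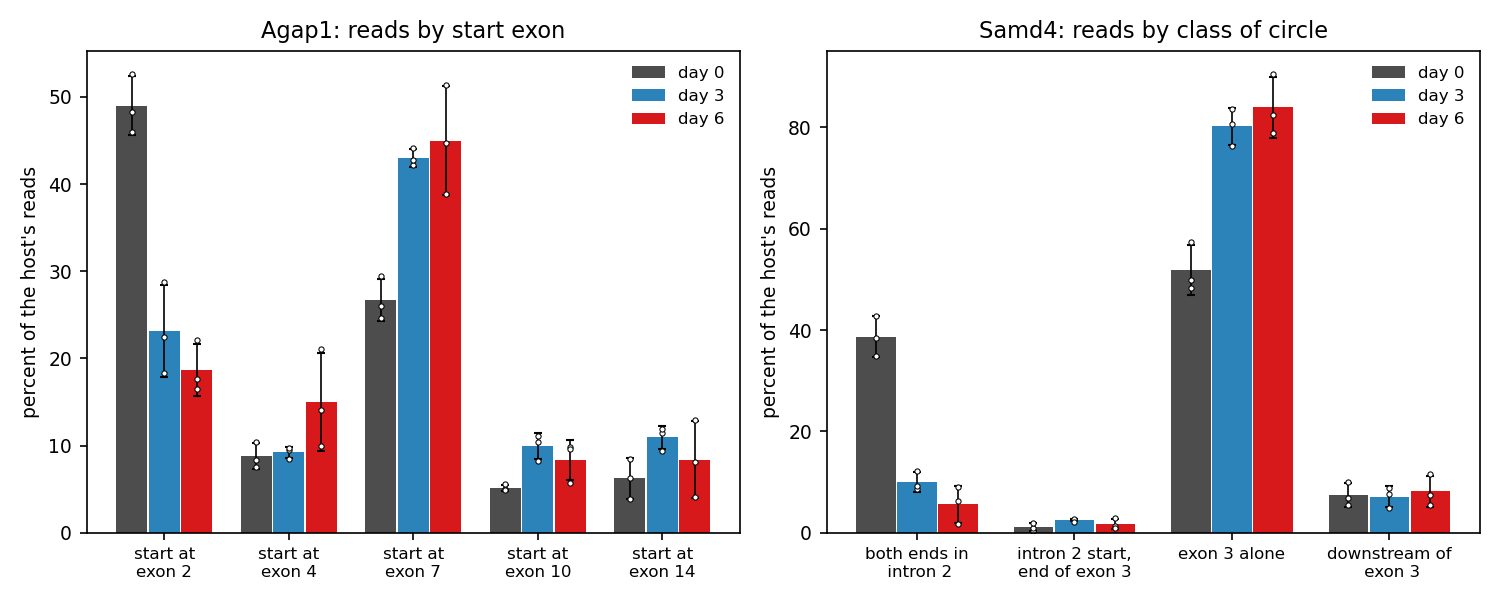
Percent of Agap1 reads by the exon at which a circle starts (left) and of Samd4 reads by class of circle (right), with days 0, 3 and 6 side by side; bars are means, error bars the SD of 3 libraries and points single libraries. At exon 2 of Agap1 the bar stands at 49.0% on day 0 and 18.7% on day 6, and at exon 7 at 26.7% and 45.0%.

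The exon 3 circle had the most reads of any Samd4 circle on every day. It had 663, 713 and 458 reads at day 0, 1553, 813 and 1702 at day 3, and 751, 1268 and 1560 at day 6. Its level was 2214 ± 480 CPM for day 0, 4275 ± 1234 for day 3 and 4070 ± 944 for day 6 (SD, n = 3). The lowest later library, day 3 replicate 2 at 2850 CPM, lay just above the highest day 0 library at 2749 CPM, so the later days did not overlap day 0. The log2 fold change was 0.95 ± 0.18 for day 3 against day 0, 0.88 ± 0.18 for day 6 against day 0 and -0.07 ± 0.18 for day 6 against day 3. Its share of Samd4 reads was 51.9 ± 4.90% at day 0, 80.2 ± 3.69% at day 3 and 84.0 ± 6.02% at day 6.

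Most of the remaining Samd4 reads at day 0 came from inside intron 2. Of the 49 circles, 22 have both ends in this intron of 131260 bp, made from 8 starts and 9 ends that match no annotated exon edge, and 7 of the 22 passed the filter. The class had 569, 433 and 364 reads at day 0, 167, 130 and 187 at day 3, and 59, 24 and 170 at day 6. That amounts to 1632 ± 167 CPM at day 0, 513 ± 50.2 at day 3 and 255 ± 153 at day 6, or 38.7 ± 3.99%, 10.0 ± 1.90% and 5.63 ± 3.67% of Samd4 reads. Every later library lay below every day 0 library in CPM and in share.

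Intron 2 circles shared a small set of sites. Of the 2103 reads of the class, 1981 start at 1 of 3 positions, chr14 46908987, 46910111 and 46914486, and the ends at 46917051 and 46935186 serve 8 and 4 circles with 1088 and 691 reads. Starts and ends of different circles also lie close together, as in these examples. A start at 46910111 and an end at 46910377 bound 267 bp, and a start at 46914486 and an end at 46914690 bound 205 bp. These ends had 19 reads in 3 libraries and 15 reads in 1 library. A start at 46925047, with 8 reads in 1 library, and an end at 46925128, with 252 reads in 8 libraries, bound 82 bp. A start at 46949302 and an end at 46949531 bound 230 bp, with 19 and 2 reads, each in 1 library. The starts at 46925047 and 46949302 belong to circles that end at exon 3. No genome sequence of this region was used here, so no junction sequence of these circles is shown.

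The intron 2 circle at chr14:46910111-46917051 was the member of this class that the test called. It had 97, 112 and 53 reads at day 0, 54, 22 and 49 at day 3, and 6, 0 and 4 at day 6. Its mean was 315 ± 111 CPM at day 0, 131 ± 49.3 at day 3 and 12.1 ± 13.7 at day 6, and the 3 days did not overlap. The log2 fold change was -1.26 ± 0.81 for day 3 against day 0, -4.69 ± 0.96 for day 6 against day 0 and -3.43 ± 0.92 for day 6 against day 3. Its day 6 values rest on 10 reads in all, and without day 6 replicate 1 the log2 fold change against day 0 was -5.75 and without replicate 2 it was -4.15. Its share was 7.30 ± 1.72%, 2.43 ± 0.371% and 0.280 ± 0.320%.

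All 7 tested circles of the class had a lower mean at days 3 and 6 than at day 0. The circle from 46914486 to 46917051 averaged 348 CPM at day 0, 78.5 CPM at day 3 and 81.4 CPM at day 6, and the one from 46914486 to 46935186 averaged 300 CPM, 103 CPM and 70.3 CPM. The circle from 46908987 to 46917051 had 37, 69 and 14 reads at day 0, 8, 18 and 0 at day 3 and none listed at day 6. Against a floor of 3 reads per library it was at least 13.35-fold lower at day 6 than at day 0, and at least 7.85-fold lower without day 0 replicate 2, the library with most of its day 0 reads. The floor covers counting error only and not the spread between libraries, which at day 3 reached from 0 to 18 reads for this circle. The circle from 46910111 to 46925128 had 20, 15 and 20 reads at day 0, 2, 0 and 13 at day 3, and none listed at day 6. Days overlapped in CPM for the remaining 2 tested circles. The one from 46910111 to 46935186 had 77, 35 and 11 reads at day 0, 12, 20 and 40 at day 3, and 15, 0 and 25 at day 6. Reads of the one from 46914486 to 46925128 were 42, 12 and 25, then 16, 12 and 18, then 20, 0 and 22.

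Circles that join an intron 2 start to the end of exon 3 were few on every day. These 8 circles had 221 reads, with 4, 12 and 18 at day 0, 49, 28 and 45 at day 3 and 27, 20 and 18 at day 6, a share of 1.05 ± 0.801%, 2.46 ± 0.221% and 1.74 ± 0.978%. The start at 46914486 is used by circles of both kinds. The 14 circles downstream of exon 3 took 7.47 ± 2.31%, 7.16 ± 2.11% and 8.19 ± 3.05% of Samd4 reads, a share that differed between days by less than the spread between libraries.

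Exon 3 set against the whole intron 2 class gave a ratio of 1.17, 1.65 and 1.26 at day 0, 9.30, 6.25 and 9.10 at day 3, and 12.7, 52.8 and 9.18 at day 6. The mean log2 ratio was 0.42 ± 0.26 at day 0, 3.02 ± 0.32 at day 3 and 4.20 ± 1.34 at day 6, and day 6 replicate 2, with 24 reads from intron 2, set the wide spread of the last day. The difference in the share of exon 3 was small when intronic reads were left out. Among the 11 exonic circles alone, exon 3 took 88.3 ± 2.60% at day 0, 92.2 ± 2.43% at day 3 and 91.0 ± 3.54% at day 6, a difference of 2.78 percentage points for day 6 minus day 0 where the difference over all Samd4 reads was 32.1 points. The level of exon 3 in CPM does not use that denominator and was higher at days 3 and 6 than at day 0, as given above.

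**Figure D4:**
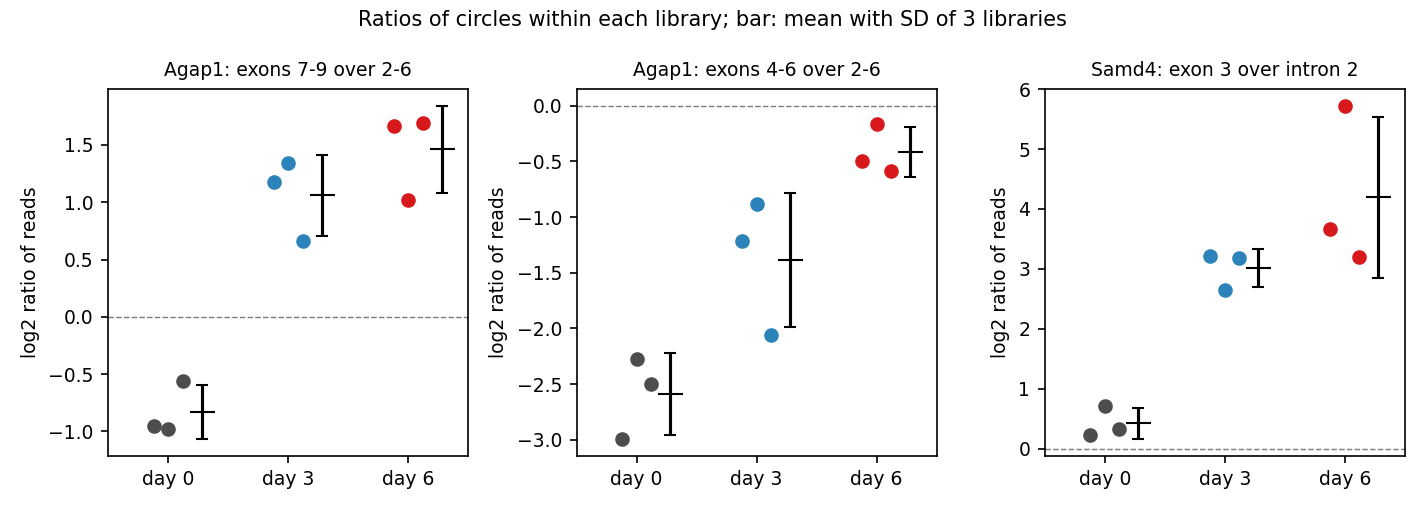
Log2 ratio of reads within each library by day, for Agap1 exons 7 to 9 over exons 2 to 6, Agap1 exons 4 to 6 over exons 2 to 6, and Samd4 exon 3 over all circles with both ends in intron 2; points are libraries and bars the mean with the SD of 3 libraries. In all 3 panels the day 3 and day 6 libraries lie above the day 0 libraries, and the first ratio passes 0, the point at which both circles are equal.

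Summed over all circles, both genes differed less from day 0 than their leading circles did. Agap1 circles together had 5776 ± 201 CPM at day 0, 5936 ± 350 at day 3 and 4922 ± 802 at day 6, with a log2 fold change of 0.04 ± 0.15 for day 3 against day 0 and -0.23 ± 0.15 for day 6 against day 0. Samd4 circles together had 4113 ± 655, 5281 ± 1374 and 4999 ± 857 CPM, with 0.36 ± 0.18 for day 3 against day 0 and 0.28 ± 0.18 for day 6 against day 0. Neither sum was called in any of the 3 comparisons by edgeR or DESeq2, and neither reached an unadjusted p of 0.05 in edgeR, but the Samd4 sum was called at day 3 when day 3 replicate 2 was left out, with a log2 fold change of 0.57. Of all 4118 hosts tested, 3.96% were called for day 3 against day 0 (3.04% as higher, 0.923% as lower), 5.66% for day 6 against day 0 (3.86% and 1.8%) and 0.0729% for day 6 against day 3 (0.0243% and 0.0486%). In bulk RNA, fewer cells with a circle and less of the circle per cell cannot be told apart.

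Calls are circRNAs with an adjusted p under 0.05 over all 8153 tested, by edgeR's quasi-likelihood test. For day 3 against day 0, 3 of the 38 tested members were called, Agap1 exons 7 to 9 and Samd4 exon 3 as higher and Agap1 exons 2 to 6 as lower, where 1.58% of all tested circRNAs were called, 1.31% as higher and 0.27% as lower. For day 6 against day 0, 3 were called, Samd4 exon 3 as higher and Agap1 exons 2 to 6 and the Samd4 intron 2 circle as lower, beside 1.99% of all, 1.47% as higher and 0.515% as lower. For day 6 against day 3 no member was called, with 0.0613% called over all, 3 members under an unadjusted p of 0.05 and 1 called by DESeq2. The first comparisons share the day 0 libraries. These counts are what brought both genes to attention, so nothing is read from them.

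The call for Agap1 exons 7 to 9 at day 3 was lost without day 3 replicate 1, where the log2 fold change was 0.76, and without day 3 replicate 2, where it was 0.70. It was also lost with a minimum count of 10, with only the day 0 and day 3 libraries in the fit, and with the size factors of DESeq2 used in edgeR, where it was 0.61. DESeq2's own test called 2 Agap1 circles at day 3, this one and exons 2 to 6. Samd4 exon 3 was not called by DESeq2 on either day, with log2 fold changes of 0.78 at day 3 and 0.81 at day 6, or with only 2 days in the fit. The Samd4 intron 2 circle at 46910111 to 46917051 was not called with only 2 days in the fit. The circle from 46908987 to 46917051 was called lower at day 6 without day 0 replicate 3 and without each day 3 library in turn, with DESeq2's size factors or test, and with library size alone. DESeq2 also called the circles from 46914486 to 46917051 at days 3 and 6, from 46914486 to 46935186 at day 6, and, for day 6 against day 3, the one from 46910111 to 46917051. Agap1 exons 2 to 6 was called at days 3 and 6 with all 9 libraries, with each library left out, and under each alternative that was run.

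**Figure D5:**
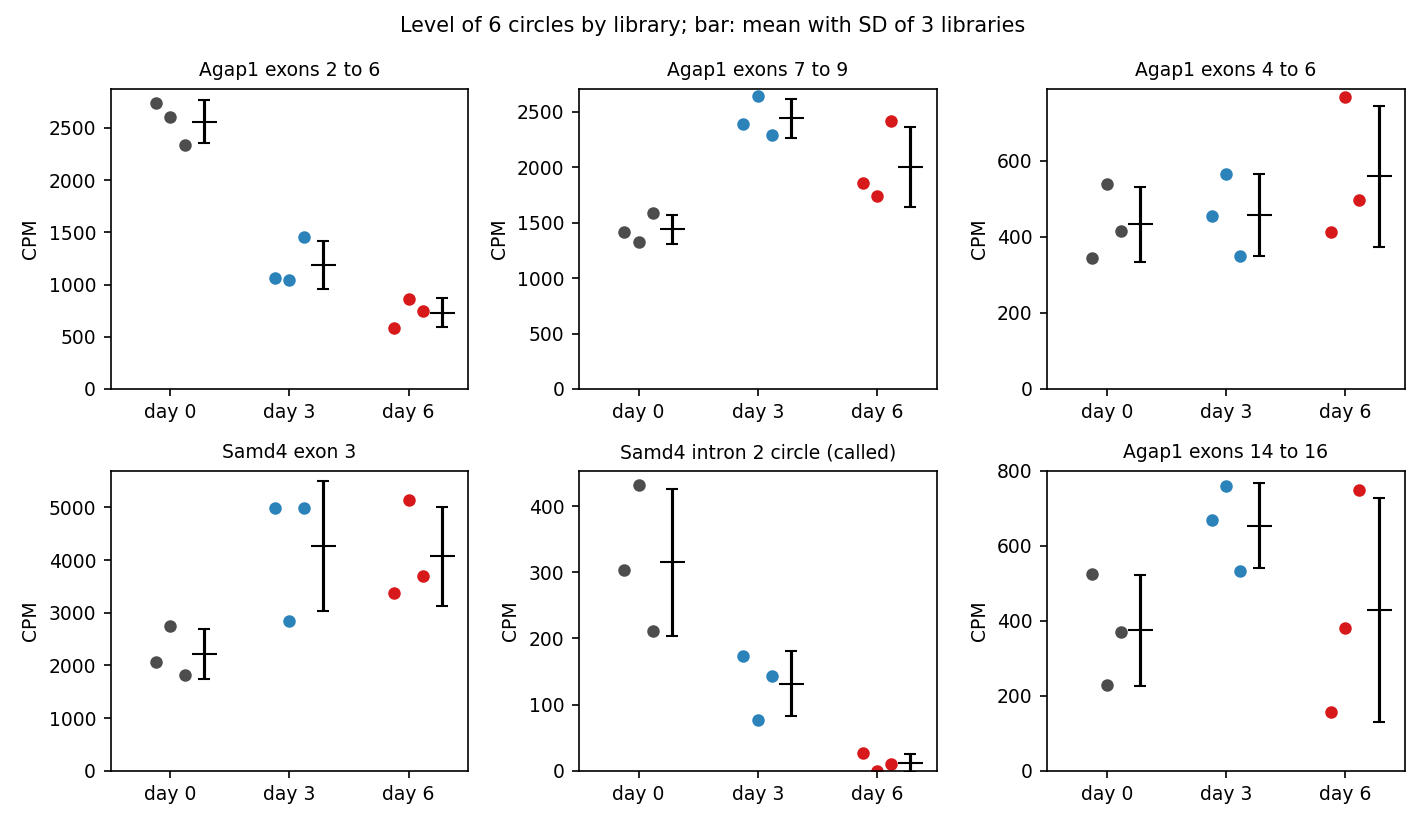
Level in CPM of 6 circles by day, with each library as a point and the mean and SD of 3 libraries as a bar; every axis starts at 0, where the error bar of the intron 2 circle at day 6 is cut off. Agap1 exons 2 to 6 is lower at days 3 and 6 than at day 0 and Agap1 exons 7 to 9 and Samd4 exon 3 are higher, while Agap1 exons 4 to 6 overlaps on all days.

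Counting only whether the 3 libraries of the later day all lie on one side of the 3 earlier ones, 5 of 23 tested Agap1 circles were higher and 3 lower for day 3 against day 0, and 2 of 15 tested Samd4 circles were higher and 4 lower. Over all tested circRNAs, 9.65% were higher and 6.43% lower in this sense. For day 6 against day 0, the counts were 2 higher and 3 lower in Agap1 and 2 higher and 5 lower in Samd4, beside 8.62% and 7.81% over all. For day 6 against day 3, no circle was higher, and 3 Agap1 circles and 1 Samd4 circle were lower, beside 3.77% and 5.36% over all. By the mean alone, 12 of 23 Agap1 circles were higher and 11 lower in each of the 3 comparisons. Of 15 Samd4 circles, 6 were higher and 9 lower for day 6 against day 0. In both other comparisons 5 Samd4 circles were higher and 10 lower. No share over all tested circRNAs was counted by the mean alone, so nothing is read from the counts by mean.

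A test of whether the circles of a host change in unequal proportion was run over all 1647 hosts with 2 or more tested circles, with edgeR's test of differential usage. It called 0.364% of hosts for day 3 against day 0, 0.486% for day 6 against day 0 and 0.0607% for day 6 against day 3. Samd4 was among the 8 hosts called for day 6 against day 0, and Agap1 was not called in any comparison. Both genes were picked for circles that differ in opposite directions, so nothing is read from their outcomes in this test. Hosts that held circles called higher together with circles called lower made up 0.0607% for day 3 against day 0, which was Agap1, 0.0607% for day 6 against day 0, which was Samd4, and 0% for day 6 against day 3. That property is the one by which the genes were picked.

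By fitted log2 fold change of day 6 against day 0, the circles at the 2 extremes of each gene were all sparse. In Agap1 the highest was exons 10 to 16, with no read listed at day 0, 0, 37 and 9 reads at day 3 and 0, 6 and 25 at day 6, and the lowest was exons 2 to 10, with 11, 15 and 0 reads at day 0, 7, 0 and 0 at day 3 and 0, 3 and 0 at day 6. In Samd4 the highest was exons 5 to 12, with no read listed at day 0, 12, 0 and 15 at day 3 and 0, 10 and 21 at day 6, and the lowest was the intron 2 circle from 46908987 to 46917051. None of these 4 was called for day 6 against day 0, and in each at least 1 library of a day with reads was at 0.

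Circles of other hosts with the most similar course were ranked by the root mean square difference of log2 CPM, centred on each circle's mean over the 9 libraries. For Agap1 exons 7 to 9 these were circles of Rbm20, at 0.15, Rere, at 0.17, and Ano6, at 0.18. For Agap1 exons 2 to 6 they were circles of Nsd2 and Lin54, both at 0.19, and Zfp516, at 0.27. For Samd4 exon 3 they were circles of Ash1l, at 0.24, and of Eri3 and Nfix, both at 0.25. With a prior count of 0.5 in place of 2, Ano6 and Nfix were no longer among the 3 nearest. The called Samd4 intron 2 circle had no near match, with circles of Ckap5 at 0.65, Adcy7 at 0.66 and Cd44 at 0.72, of which only Ckap5 stayed among the 3 nearest with a prior count of 0.5. For the sparse circles at the extremes, the nearest were circles of Taok1, Med13l and Ehmt1 for Agap1 exons 10 to 16, of Psmc6, Phf21a and Hace1 for Agap1 exons 2 to 10 (Hace1 not with a prior count of 0.5), of Dcaf7, Trim55 and Bin1 for Samd4 exons 5 to 12, and of C2cd5, Pxdn and Lpp for the Samd4 circle from 46908987 to 46917051.

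Other hosts of the pathways around the 2 proteins were counted from 3 gene lists, on circRNA reads summed per host. The lists were chosen with earlier results of these data known, so their calls and adjusted p-values are a description and not independent tests. Of 22 other ARF GTPase-activating proteins and relatives, 17 had circRNAs and 11 were tested, and Asap1, a GTPase-activating protein of ARF that acts at focal adhesions, was higher at both later days. Its circles summed to 1914 ± 275 CPM at day 3 and 856 ± 79.4 CPM at day 0 (log2 fold change 1.16 ± 0.21, adjusted p = 3.2e-04 by edgeR), and to 1766 ± 87.0 CPM at day 6 (1.05 ± 0.21, adjusted p = 9.0e-04 by edgeR against day 0). The call of Asap1 held in each alternative that was run. The other 10 did not pass. Of these, Agfg1 was called lower at day 3 with other scaling, no filter, a replicate block, DESeq2 or 5 of the 9 libraries left out in turn, and Asap2 was called lower at day 6 by DESeq2 alone; both are named after their values were seen. The median log2 fold change of the list was -0.64 at day 3 and -0.84 at day 6 against day 0, beside -0.03 and -0.13 over all hosts. Over all 4118 hosts, 3.04% passed as higher and 0.923% as lower for day 3 against day 0. For day 6 against day 0 these shares were 3.86% and 1.8%. Of the 7 AP-3 subunit genes, 4 had circRNAs and 3 were tested, and none passed in any comparison by edgeR or DESeq2, with 2 of 3 under an unadjusted p of 0.05 in edgeR for day 6 against day 0 and 0 for the others.

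Of 32 genes of Smaug-linked mRNA repression and decay, 28 had circRNAs and 22 were tested. Cnot6l, a deadenylase subunit of CCR4-NOT, rose to 13138 ± 30.0 CPM at day 3, against 9148 ± 200 CPM at day 0 (log2 fold change 0.52 ± 0.12, adjusted p = 0.0051 by edgeR). It stood at 14188 ± 1122 CPM at day 6, also above day 0 (0.63 ± 0.12, adjusted p = 3.9e-04 by edgeR). Lsm14a, a component of P-bodies that takes part in translational repression, had 1217 ± 392 CPM at day 6 and 577 ± 90.5 CPM at day 0 (1.08 ± 0.28, adjusted p = 0.0128 by edgeR). Cnot6l was not called at day 3 with library size alone, at a log2 fold change of 0.39. Lsm14a was not called with only 2 days in the fit or without day 6 replicate 1, where its log2 fold change was 0.79. No host of the list passed as lower, where 0.923% of all 4118 hosts did for day 3 and 1.8% for day 6 against day 0. Shares called higher over all hosts were 3.04% and 3.86%. With 22 tested hosts, these counts are too small to set the list apart from all hosts. Among hosts named after their values were seen, DESeq2 called Cnot6 lower at day 3 and Cnot2 higher at day 6, and Cnot2 was also called with no filter, with a replicate block and without some libraries, while Xrn1 was called higher at both later days without day 0 replicate 1. The median log2 fold change of the list was -0.34 at day 3 and -0.71 at day 6 against day 0. No host of the 3 lists was called for day 6 against day 3, where the unadjusted count in edgeR was 1 for the ARF list and 0 for the other lists, and DESeq2 called none.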

How the data were processed

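The authors deposited 1 table of whole-number back-splice read counts per circRNA and library, with locus, type, circBase name and gene ID, per the file header. The submitters' processing notes name BWA and the builds GRCm38.p4 and mm10; for the circRNA caller and its settings, the sources used here give nothing. Total RNA went through a bead clean-up and DNase digestion, described as enrichment of circRNAs, and then into an mRNA-seq library kit, per the labels' protocols.

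Counts were used as deposited. edgeR 4.0.16 in R 4.3.3 was fitted to all 9 libraries after a filter (minimum count 5, minimum total 15), with TMM factors on library totals, 6 residual degrees of freedom and Benjamini-Hochberg adjustment over all tested circRNAs. The same was done on counts summed per host over 6920 hosts, where a row naming 2 genes counted for each. CPM values use the same factors. The pipeline was tested on simulated data. DESeq2 1.42.0, other scaling, other filters, a replicate block and leaving out each library were alternatives. Exons and junctions come from GENCODE M21 on GRCm38.

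Members, lists and tests were chosen with earlier results of these data known. A circle is described by name if it passes the filter and is called in any comparison or takes at least 10% of its host's reads on any day, and a host of a gene list is named if it is called. Similar circRNAs were planned for the highest and lowest circle of each gene, with a prior count of 2, and those of the 4 called circles, the alternatives for hosts of the lists, and the least fold without single libraries, were added after the data were seen. Reads are not independent molecules without molecular identifiers, so the floor of 3 reads covers counting error only.

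Labels number replicates 1 to 3 on each day. Deviations of libraries with the same number correlated between -0.031 and 0.0097 over tested circRNAs, so the numbers were not taken to pair the libraries.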

Additional observations from a re-analysis of the deposited data

How the results depend on the processing

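With the replicate block, the calls among circles of both genes numbered 3 at day 3 and 3 at day 6 relative to day 0, and 0 between days 6 and 3, as without it. DESeq2 called 5 circles for day 6 against day 0 and 1 for day 6 against day 3, and with only the 2 groups compared in the fit 1 circle was called in each comparison with day 0. Leaving out 1 library gave 2 to 3, 3 to 4 and 0 to 0 calls in the 3 comparisons, and 0 to 1, 0 to 0 and 0 to 0 calls of host sums, the 1 being Samd4 without day 3 replicate 2. The share of Samd4 exon 3 at a later day minus day 0 was 32.1 points at day 6 and 28.3 at day 3, and 2.78 and 3.90 with only exonic circles at exon edges. Without 1 library, that share difference ranged from 28.8 to 34.9 points at day 6 and 26.5 to 31.1 at day 3, that of Agap1 exons 2 to 6 from -28.9 to -26.1 and from -25.6 to -21.0, that of Agap1 exons 7 to 9 from 15.4 to 20.8 and from 16.1 to 18.3, and that of the called Samd4 intron 2 circle from -7.88 to -6.16 and from -5.74 to -4.02. Without 1 library, the least fold by which the Samd4 circle from 46908987 to 46917051 was lower at day 6 ranged from 7.85 to 17.5. No value changed sign while called.

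Over all tested circRNAs, DESeq2's size factors moved the median log2 fold change of day 3 against day 0 by -0.13. DESeq2 called 170 higher and 102 lower at day 3 relative to day 0 and 272 higher and 194 lower for day 6 against day 0, where edgeR called 107 and 22, and 120 and 42. With only 2 groups in the fit edgeR called 30 circRNAs at day 3, 21 of them higher, and 70 at day 6, both relative to day 0, and 0 between days 6 and 3. Between those last days, DESeq2 called 20, edgeR without a filter 9, and edgeR with it 5. Of the 3 circRNAs most similar to the called Samd4 intron 2 circle, 1 remained with a prior count of 0.5, and 2 of 3 remained for Agap1 exons 7 to 9, Samd4 exon 3 and Agap1 exons 2 to 10. Depth limits the 63 circles below the filter to their listed reads.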
